A study of Camponotus floridanus with 64 samples.

Results

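The comparison described here asks what C646 adds to trichostatin A (TSA) in the brain of scouts of the carpenter ant Camponotus floridanus. Its members are 16 of the 64 samples of the series, chosen by their labelled treatment: 10 brains of scouts fed TSA, numbered 1 to 10, and 6 brains of scouts fed TSA with C646, numbered 11 to 16. RNA with poly(A) tails was sequenced from single central brains, and 5 brains of scouts fed the solvent DMSO alone, numbered 17 to 21, are given beside them. All comparisons run over the 18130 identifiers of the deposited table, which hold numbered genes, chemosensory receptors and small RNA loci.

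Histone acetyltransferases such as CBP and p300 add acetyl groups to histone tails, and histone deacetylases remove them. Acetylated chromatin is generally more open to transcription. TSA inhibits deacetylases and C646 inhibits CBP and p300, so a brain given both has inhibitors on either side of the same balance. In Camponotus floridanus, minor workers do most of the scouting and foraging, and the larger majors forage less.

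All ants were minor workers of the scout caste that fed on sugar water with DMSO, labelled with 45 days of treatment. TSA was given at 50 µM in both arms. C646 was given at 50 µM to brains 11, 12, 13 and 16 and at 100 µM to brains 14 and 15. Colony SB1 held TSA brains 4, 7, 8 and 9 and TSA+C646 brains 11, 13 and 16, the latter all at 50 µM, and is the colony-matched check. Colony SB4 held TSA brains 5 and 6 and TSA+C646 brains 14 and 15, both at 100 µM. TSA brains 1, 2, 3 and 10 came from SB2 and TSA+C646 brain 12 from SB6. The TSA ants were 68 to 73 days old and the TSA+C646 ants 57 to 66 days, so age and C646 cannot be told apart. This also holds within SB1, where the TSA ants were 72 days old and the TSA+C646 ants 63 days. The DMSO ants were 78 days old and came from SB2 (brains 17 to 19), SB6 (brain 20) and SB7 (brain 21). The TSA+C646 ages, and the 68 days of 3 TSA ants, are lower than the labelled age at isolation plus the labelled feeding time, so the time spent on the inhibitors may differ from the label. Workers were kept in nest boxes of several ants, and the labels do not say which ants shared a box. Each library came from 15% of a brain and from 1 round of linear amplification, so fewer cells of a type and less RNA per cell cannot be told apart. Of 10 cell type markers looked for by symbol, 4 are named in the table, and neurons, glia and fat body could not be checked, because the numbered genes carry no names in the sources used here.

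The number of identifiers detected varied widely within both arms. The TSA brains detected 7511 to 12328 identifiers, and the TSA+C646 brains detected 8659, 8826, 8154, 8543, 2791 and 12032 in the order of their numbers. The means were 9459 ± 1533 (SD, n = 10) and 8168 ± 2989 (n = 6), and an exact two-sided permutation test gave p = 0.309 (adjusted p = 0.971 over 4 such tests). Within SB1 the means were 9474 ± 1287 (n = 4) and 9615 ± 2108 (n = 3; exact permutation p = 0.971, where 0.0571 is the smallest value possible). Each library also carried a constant on the log2 scale, from -0.33 in brain 15 to 0.907 in brain 16. The mean constant was 0.152 in TSA and 0.0972 in TSA+C646 brains (exact permutation p = 0.768, adjusted p = 0.971). Brains TSA 8, 9 and 10 and TSA+C646 15 and 16 stood furthest from the median profile, with a median absolute deviation per gene of 0.403 to 1.29 against 0.276 to 0.388 in the other 11. Undetected identifiers carry deposited values of up to 1.30 in brain 15 and 0.914 in brain 16. Apart from its constant each library follows 1 shared distribution of values, so a level gives a rank within the library. Where detected, identifiers had a median level of 2.52 in brain 15 and of 0.68 to 1.28 in the other 15 brains. High levels of single genes in brain 15 are therefore not directly comparable with those of other brains.

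**Figure D1:**
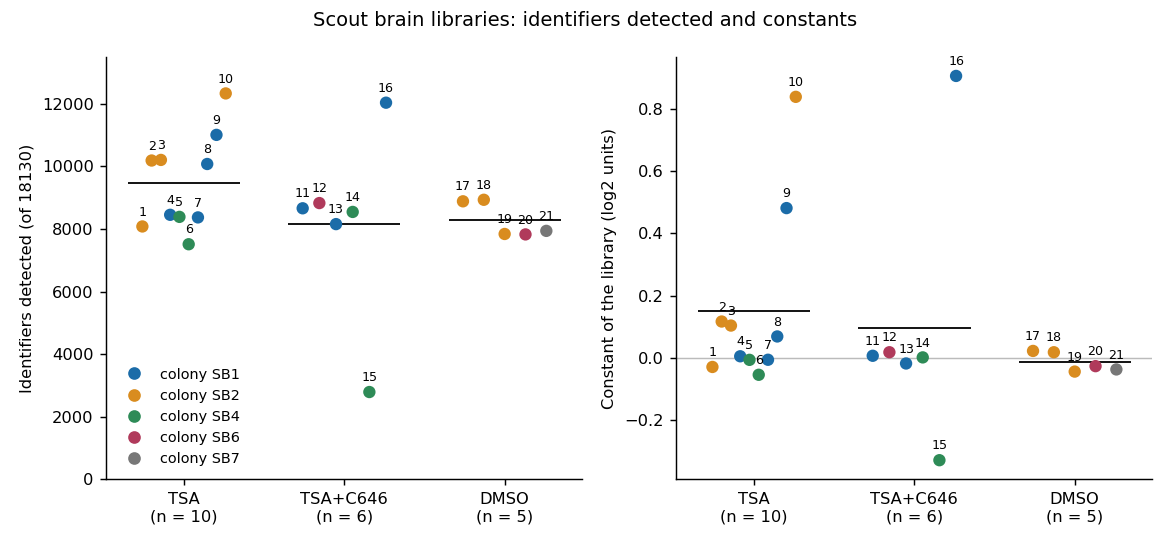
Identifiers detected (left, of 18130) and the constant of each library in log2 units (right) for the 10 TSA, 6 TSA+C646 and 5 DMSO scout brains. Points are brains, coloured by colony and marked with their number, and lines are group means. TSA+C646 brain 15 detected 2791 identifiers and brain 16 detected 12032, the lowest and highest of their arm.

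Profiles of the arms were interleaved. Over the 4899 genes tested, with the constants removed, the median Pearson correlation was 0.718 between 2 TSA brains, 0.734 between 2 TSA+C646 brains and 0.729 between a TSA and a TSA+C646 brain. Brain 15 correlated at 0.298 to 0.381 with the other 15, and TSA brain 9 at a median of 0.582. Without the 5 brains that stood apart the medians were 0.734, 0.776 and 0.759. These are correlations across genes, which are not independent replicates. The median SD per gene of the deposited values was 0.68 in TSA and 0.86 in TSA+C646 brains, or 0.64 in the latter without brain 15.

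No gene passed the test of TSA+C646 against TSA. Genes with a mean deposited log2 value of at least 1 over the scout brains were tested with limma, and 0 of 4899 passed a Benjamini-Hochberg adjusted p of 0.05 (0.0% called, smallest adjusted p 0.599). At an unadjusted p under 0.05 C646 went with higher values in 70 genes, or 1.43% of those tested, and with lower values in 104, or 2.12%. The median difference over all tested genes was -0.10. The median 95% confidence interval, not adjusted for the number of genes, reached 0.78 to either side of a gene's difference. Smaller differences were mostly not detectable in these brains, and much larger ones could also miss the adjusted threshold. Cflo_02028, for example, differed by 3.41 (SE 0.93, limma adjusted p = 0.877). In none of the 4899 genes did all 6 TSA+C646 brains lie above, or below, all 10 TSA brains (0.0%).

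Cflo_01141, a numbered gene, had the smallest p of all. With the constant of each library removed it stood at 1.68 to 3.07 in the TSA+C646 brains (median 2.31, detected in 6 of 6). In the TSA brains it stood at 0 to 1.94 (median 0.13, detected in 5 of 10). Only TSA brain 6 was inside the TSA+C646 range, and the other 9 TSA brains lay at 0.63 or lower. The DMSO brains stood at 2.28, 0, 0, 1.57 and 2.47, so they covered the values of both arms. The deposited means were 2.38 ± 0.39 (SD, n = 6) and 0.56 ± 0.70 (n = 10). They differed by 1.82 (SE 0.39, limma adjusted p = 0.599). Without brain 15 the difference was 1.75, without the 5 brains that stood apart 1.78, in SB1 2.22 and in SB4 1.57.

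Cflo_03053 was detected in every scout brain. It stood at 1.70 to 3.19 with C646 (median 2.30) and at 0.55 to 1.88 with TSA alone (median 1.22), and TSA brain 10 was the one that overlapped. The DMSO brains, at 2.50, 1.56, 2.65, 2.23 and 2.13, lay mostly with the TSA+C646 brains. The difference was 1.09 (SE 0.30, limma adjusted p = 0.908). Cflo_12582 was listed at 0 in brain 15 and stood at 1.20 to 2.07 in the other 5 TSA+C646 brains, above all 10 TSA brains, which ranged from 0 to 1.02. Its difference of 0.93 (SE 0.28, limma adjusted p = 0.992) became 1.15 without brain 15 (limma adjusted p = 0.728).

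Of the other 5 genes with the smallest p on the higher side, 2 were sparse. Cflo_16586 was detected in 5 of 6 TSA+C646 brains, up to 6.40, and in 1 of 10 TSA brains, at 1.91, while DMSO brains 18 and 19 held it at 5.47 and 4.37. Cflo_02028 was listed at 0 in TSA+C646 brains 13 and 15 and stood at 3.81 to 5.85 in the other 4. The other brains holding it were TSA brain 9, at 0.98, and DMSO brain 21, at 6.40. Each of these genes was undetected in most TSA and most DMSO brains, and in neither gene did the arms separate. Cflo_15393, Cflo_13306 and Cflo_09644 were detected in all 6 TSA+C646 brains, and each had its highest value in brain 15, at 4.04, 7.29 and 6.17. Their next highest values with C646 were 2.06, 4.82 and 3.04, against up to 1.18, 5.14 and 3.65 in TSA brains. Their differences were 1.30, 1.63 and 1.96, and 0.95, 1.25 and 1.42 without brain 15 (limma adjusted p from 0.817 to 1.0 in both fits). Levels of detected identifiers in brain 15 run high, as given above.

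On the lower side Cflo_03594 had the smallest p. It was detected in all 10 TSA brains, at 0.88 to 2.81 (median 2.13), and in 3 of 6 TSA+C646 brains, at 1.66 in brain 12, 0.57 in brain 14 and 0.06 in brain 16. Brain 12, from SB6, was alone among the TSA+C646 brains in reaching the TSA range. The DMSO brains stood at 1.79, 1.97, 1.79, 2.02 and 0. The difference was -1.51 (SE 0.35, limma adjusted p = 0.782). It was -1.40 without brain 15, -1.29 in SB1 and -1.53 in SB4.

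Cflo_15558 stood at 0.65 to 4.67 in TSA brains (median 2.44) and at 0 to 0.77 with C646 (median 0.35), and only TSA brain 9 overlapped. The difference was -2.04 (SE 0.52, limma adjusted p = 0.801), and -2.02 without the 5 brains that stood apart (limma adjusted p = 0.373). The DMSO brains ran from 0 to 2.77 and so covered both arms. Cflo_02067 stood at 0.62 to 2.24 with TSA and 0 to 0.71 with C646, and the arms overlapped, with TSA brain 9 at 0.62 and TSA brain 10 at 0.71. Its difference was -0.85 (SE 0.22, limma adjusted p = 0.801). Cflo_14877 was detected in 8 of 10 TSA brains, up to 3.90, and reached 0.55 with C646 and 0.79 with DMSO. Its difference was -1.72 (SE 0.54, limma adjusted p = 0.992).

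The last 4 of these genes, Cflo_12525, Cflo_02835, Cflo_12789 and Cflo_05385, were detected in all 10 TSA brains and had differences of -1.36, -0.75, -1.43 and -0.78 (limma adjusted p from 0.801 to 0.992). Cflo_12789 was split within the arm: it stood at 2.75 and 2.72 in TSA+C646 brains 11 and 13, inside the TSA range of 1.25 to 3.21, and at 0 in the other 4. All 8 genes named on the lower side were listed at 0 in brain 15.

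**Figure D2:**
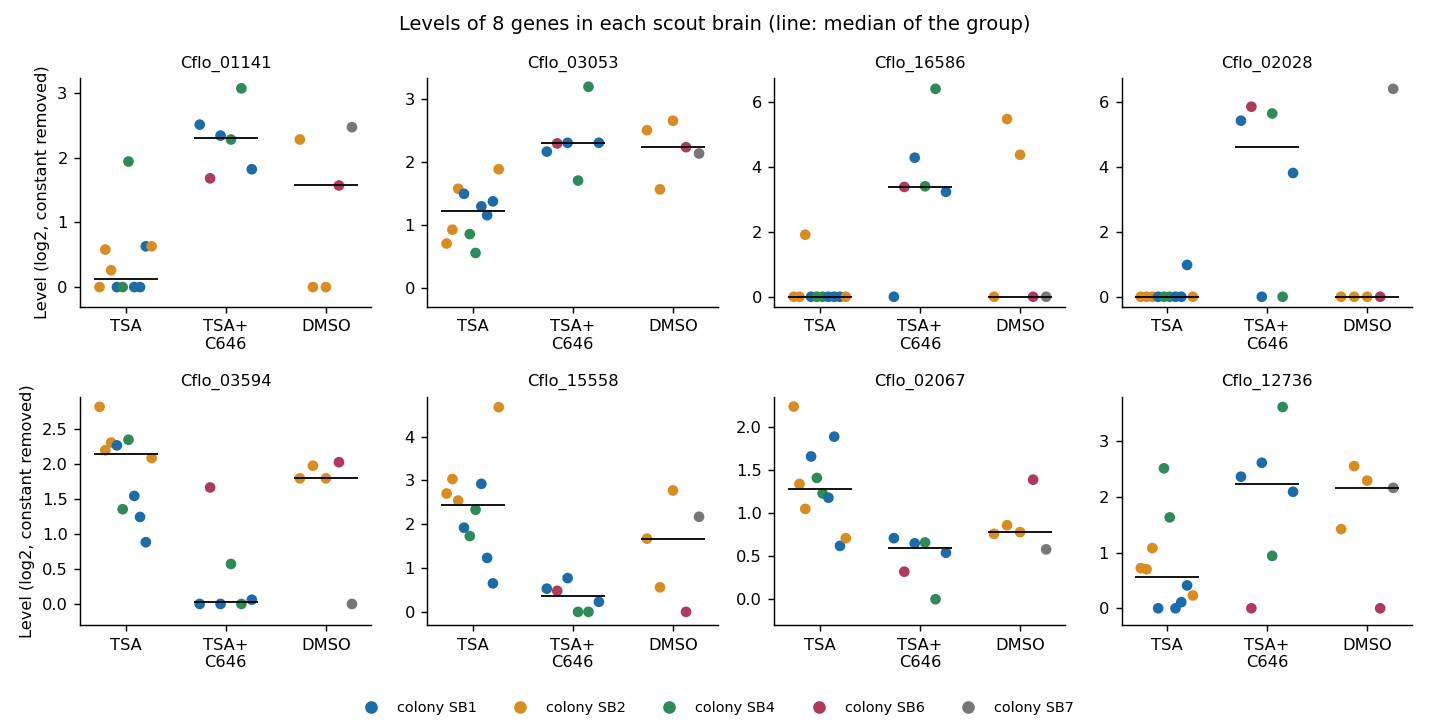
Level on the log2 scale, with the constant of each library removed and undetected genes at 0, of 8 numbered genes in each TSA, TSA+C646 and DMSO scout brain. Points are brains coloured by colony, and lines are group medians. In Cflo_01141 the TSA+C646 brains stand at 1.68 to 3.07 with TSA brain 6 at 1.94 among them, and in Cflo_15558 the TSA+C646 brains stand at 0.77 or lower.

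The balance of higher and lower genes turned with single libraries. All 104 genes on the lower side were undetected in brain 15, as were 64.4% of all tested genes, and brain 15 held the lowest deposited value of the 16 brains in 65 of them (62.5%, against 39.7% of all tested genes). On the higher side brain 15 held the highest value in 26 of the 70 genes (37.1%, against 7.92% of all tested genes) and brain 16 in 32 (45.7%, against 28.0%). Brain 15 left 18.6% of these 70 genes undetected, against 64.4% of all tested genes. Its shares of highest values therefore also reflect how many genes it detected. Without brain 15 the counts were 143 higher and 31 lower, without brain 16 they were 34 and 326, and without TSA brain 10 they were 115 and 81. Of the 70 higher genes 21 remained at an unadjusted p under 0.05 whichever of the 16 libraries was left out, and of the 104 lower genes 23 did. Without the 5 brains that stood apart the counts were 103 and 114, with 21 and 50 of the first genes among them. Limma called 0 genes in all of these fits.

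**Figure D3:**
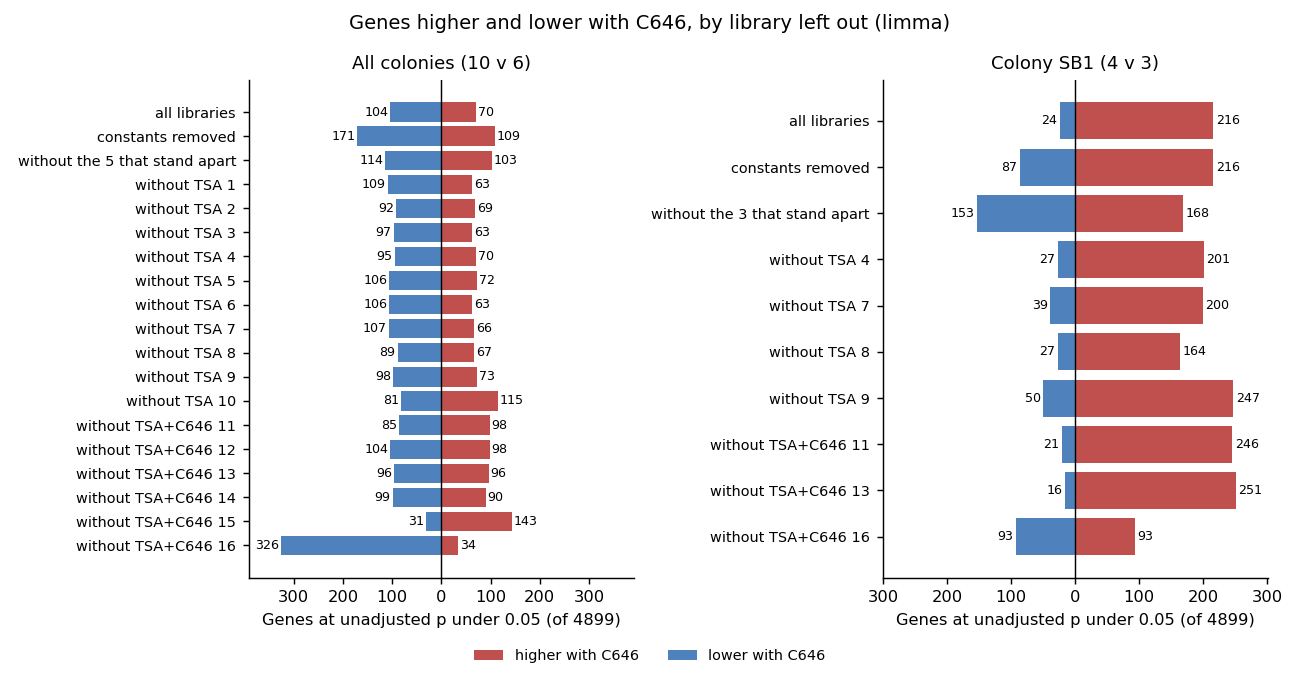
Genes higher (red, right) and lower (blue, left) with C646 at an unadjusted p under 0.05 by limma, of 4899 tested, with all libraries, with the constants removed and with libraries left out, for all colonies (left) and colony SB1 (right). Over all colonies the counts were 143 and 31 without brain 15 and 34 and 326 without brain 16. In SB1 they were 93 and 93 without brain 16.

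Detection of single identifiers was compared by the share of brains. Of the 15294 identifiers detected in any of the 16 brains, 4 had a share larger by at least 0.6 with C646 (0.0262%) and 77 a share smaller by that much (0.503%). Without brain 15 these were 68 and 83. The 4 identifiers that most favoured TSA+C646 were Cflo_16586, described above, Cflo_11459, Cflo_01956 and Cflo_00558. Cflo_11459 was detected in 4 of 6 TSA+C646 brains, at up to 0.76, and in 0 of 10 TSA and 0 of 5 DMSO brains. Cflo_00558 was detected in all 6 TSA+C646 brains, 4 of 10 TSA brains and 4 of 5 DMSO brains. Cflo_01956 was detected in 5 of 6 TSA+C646 brains, 2 of 10 TSA brains and 0 of 5 DMSO brains. These 3 sat near the bottom of the scale apart from 2.67 for Cflo_00558 in brain 15 and 1.27 for Cflo_01956 in TSA brain 8, and none passed without a filter on low values (limma adjusted p = 1.0). On the other side Cflo_01315, Cflo_00141 and Cflo_04222 were detected in all 10 TSA brains, at 0.45 to 1.26, and in brain 16 alone among the TSA+C646 brains, at 0.55 to 1.02. Cflo_00642 was seen in 9 TSA brains out of 10, at 1.08 or lower, and in 0 of 6 with C646. In DMSO brains they were found in 2, 5, 1 and 1 of 5, so a DMSO brain without them was common for all but Cflo_00141. All 4 were detected in each of 6 subsamples of a single day 1 minor brain that the series holds as technical controls. Of the 4 that favoured TSA+C646, Cflo_01956 was detected in 5 of the 6 subsamples and the other 3 in 0.

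Within colony SB1, where both arms shared the colony and the dose was 50 µM, limma called 0 of 4899 genes (0.0%, smallest adjusted p 0.693). There 216 genes had higher values with C646 at an unadjusted p under 0.05 (4.41%) and 24 lower (0.49%), beside a median difference of 0.14 and a median 95% interval of 1.26 to either side. Brain 16, with its constant of 0.907, held the highest deposited value of the 7 brains in 165 of the 216 genes (76.4%, against 49.1% of all tested genes). With the constants removed 216 genes were higher (4.41%) and 87 lower (1.78%), the median was -0.02 and the smallest limma adjusted p was 0.0926. Of the 216 higher genes 73 remained at an unadjusted p under 0.05 with any of the 7 libraries left out, and 90 without brain 16, where the counts were 93 and 93. The lower side held 39 genes without TSA brain 7 and 50 without TSA brain 9. The arms did not overlap in 204 genes with TSA+C646 above (4.16%) and 43 below (0.878%), or in 200 (4.08%) and 144 (2.94%) with the constants removed.

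Cflo_12736 and Cflo_11251 had the smallest p in SB1. Cflo_12736 stood at 0, 0, 0.11 and 0.41 in TSA brains 4, 7, 8 and 9 and at 2.36, 2.61 and 2.09 in TSA+C646 brains 11, 13 and 16. Cflo_11251 stood at 0, 0, 0 and 0.36 against 2.58, 2.16 and 2.18. In both, all 3 brains with C646 lay above all 4 with TSA, with differences of 2.30 each (SE 0.40 and 0.42, limma adjusted p = 0.693 for both, and 0.0926 for both with the constants removed). Outside SB1 the pair was alike in some brains and apart in others. In TSA brains 1 and 10 of SB2 Cflo_12736 stood at 0.72 and 0.23 and Cflo_11251 at 1.89 and 1.94. Both were listed at 0 in TSA+C646 brain 12 and DMSO brain 20, the 2 brains of SB6. In SB4 TSA brains 5 and 6 Cflo_12736 stood at 2.51 and 1.63 and Cflo_11251 at 2.59 and 1.93, and in TSA+C646 brains 14 and 15 they stood at 0.94 and 3.61 and at 1.15 and 3.54. The SB4 arms thus overlapped in both genes. The SB4 differences were 0.07 and -0.05 (SE 1.09 and 0.99), and over all colonies 1.13 and 0.86 (limma adjusted p = 0.992 for both).

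Cflo_01141 came next, at 0, 0, 0 and 0.63 against 2.51, 2.34 and 1.82 in SB1. Cflo_07855 stood at 0, 0, 0 and 0.79 against 1.99, 4.88 and 3.57, and Cflo_07800 at 0.78, 0, 1.34 and 1.61 against 3.27, 4.10 and 2.84. Both separated the arms in SB1, while in the 2 TSA+C646 brains of SB4 Cflo_07800 was listed at 0 and Cflo_07855 stood at 2.11 and 0. Their SB1 differences were 3.44 (SE 0.72) and 2.61 (SE 0.56), and their SB4 differences -0.46 and -1.26 (limma adjusted p = 0.711 in SB1 for both). On the lower side Cflo_11285 stood at 3.85, 2.22, 2.62 and 3.36 with TSA and was listed at 0 in all 3 SB1 brains with C646. It stood at 3.77 and 4.32 in TSA+C646 brains 12 and 14 of other colonies. Cflo_00696 showed the same arrangement, with 1.48 to 2.87 in the 4 TSA brains, 0, 0 and 0.14 with C646 in SB1, and 2.69 and 2.18 in brains 12 and 14. Cflo_14965 stood at 4.06 to 6.77 in the 4 TSA brains and was detected in brain 16 alone among the 3 with C646, at 3.72. The SB1 differences of these 3 genes were -2.83, -1.75 and -3.87 (limma adjusted p = 0.693, 0.711 and 0.766). Cflo_12718 and Cflo_04108 followed, with -1.64 and -1.60 (limma adjusted p = 0.775 and 0.784).

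Calls in SB1 appeared when single libraries were left out. Without brain 11 limma called 11 identifiers, without brain 13 it called 9, without TSA brain 9 it called 1 and without any of the other 4 it called 0. These identifiers were chosen by those calls, after their values were seen. All were higher with C646. Without brain 11 they included 6 ribosomal RNA loci, listed at 0 in brain 11 and in all 4 TSA brains of SB1 and standing at 5.16 to 6.10 in brain 13 and 7.28 to 7.40 in brain 16. The smallest adjusted p without brain 13 was that of Cflo_05417 (limma adjusted p = 0.00111), which stood at 8.39 and 8.70 in brains 11 and 16 and was listed at 0 in brain 13 and in the 4 TSA brains. Outside SB1 Cflo_05417 was detected in TSA brains 2 and 10, at 7.87 and 6.07, and in no DMSO brain. The call without TSA brain 9 was Cflo_14000, at 4.89, 5.05 and 5.07 in the 3 SB1 brains with C646, 4.31 in TSA brain 9 and 0 in TSA brains 4, 7 and 8 (limma adjusted p = 0.0124).

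Transfer RNA loci made up 41 of the 216 genes on the higher side in SB1. Transfer RNAs carry amino acids to the ribosome and are not polyadenylated when mature, and near-identical copies share reads, so their counting can be split between loci and neighbouring loci are not independent. The table holds 458 of them, of which 107 passed the filter. Those 41 were 38.3% of the loci tested, against 4.41% of all tested genes, and 4 were lower (3.74%, against 0.49%). Both shares were thus above those of all tested genes. None passed adjustment (smallest limma adjusted p 0.711), and the median difference was 1.46 against 0.14 for all genes. Without brain 16, 29 were higher (27.1%, against 1.9% of all tested genes) and 3 lower (2.8%, against 1.9%), with a median of 0.97 against -0.15. The arms did not overlap in 40 of 107, all with C646 above (37.4%, against 4.16% of all tested genes). Cflo_tRNA99, the locus with the smallest p, stood at 6.55, 6.83, 6.74 and 6.10 in TSA brains 4, 7, 8 and 9 and at 8.88, 8.77 and 8.25 in TSA+C646 brains 11, 13 and 16. Its difference in SB1 was 2.24 (SE 0.49, limma adjusted p = 0.711).

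The levels can be followed across colonies in 43 transfer RNA loci that were detected in all brains of both arms but brain 15, a set chosen after the values were seen. Their median level was 7.12, 7.40, 7.25 and 6.15 in the SB1 TSA brains and 8.42, 8.84 and 8.64 in the SB1 TSA+C646 brains, without overlap. The 4 TSA brains of SB2, which had no C646, stood at 8.37, 9.01, 8.65 and 8.37. The TSA brains of SB4 stood at 7.70 and 8.16, and TSA+C646 brains 14 and 12 at 8.77 and 8.13. DMSO brains 17 to 20 stood at 8.92, 8.74, 8.27 and 8.88, and DMSO brain 21 detected 10 of the 43 loci. By this median the SB1 TSA brains were the low ones of those with all loci detected, and the SB1 brains with C646 lay within the range of the SB2 TSA brains. In 32 of the 43 loci all 3 SB1 brains with C646 were above all 4 with TSA (74.4%). In 0 were they all below (0.0%). Among all tested genes with the constants removed these shares were 4.08% and 2.94%. In the other 11 the SB1 arms overlapped. These loci were set apart by that overlap, so the order of their medians is no separate result. Their median over brains was 9.62 in SB1 TSA, with single brains from 2.65 to 9.70. It was 8.53 in SB1 TSA+C646 and 8.28 in SB2 TSA. Cflo_tRNA18, one of the 11, stood at 10.85, 10.85, 13.31 and 2.64 in TSA brains 4, 7, 8 and 9. In TSA+C646 brains 11, 13 and 16 it stood at 9.97, 10.12 and 8.68. A level gives a rank within a library, and Cflo_rRNA14, Cflo_rRNA15 and Cflo_rRNA16 were listed at 0 in TSA brain 8. Whether their absence raised the 13.31 there was not tested. Cflo_tRNA346, also of the 11, went the other way, at 4.71, 7.09, 6.52 and 6.25 against 6.29, 8.23 and 8.07. Cflo_tRNA161 and Cflo_tRNA251 did not follow the order of the medians either. Without TSA brains 8 and 9 and TSA+C646 brain 16, 29 of the 107 loci were higher (27.1%, against 3.43% of all tested genes) and 9 lower (8.41%, against 3.12%) in SB1 at an unadjusted p under 0.05. The median difference was 0.78, against -0.03 for all genes.

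**Figure D4:**
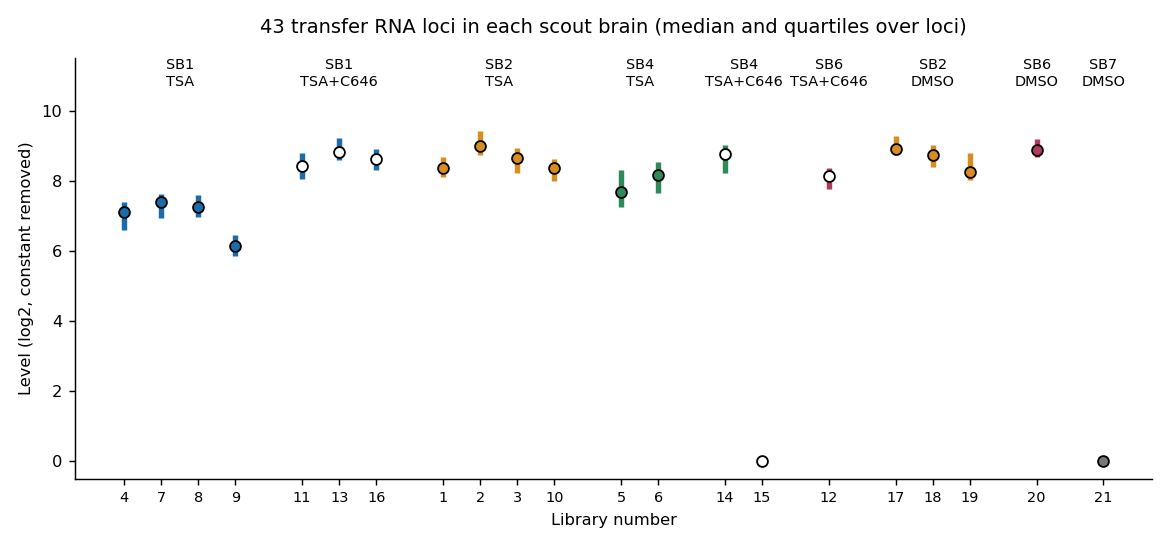
Median (points) and quartiles (bars) of the level, on the log2 scale with the constants removed, over 43 transfer RNA loci in each scout brain, grouped by colony and treatment. Open points are TSA+C646 brains, and the horizontal axis gives the library number. The SB1 TSA brains stand at 6.15 to 7.40 and the SB1 TSA+C646 brains at 8.42 to 8.84, and brain 15 detected none of these loci.

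Over all colonies 0 of the 107 transfer RNA loci were higher and 7 lower (6.54%, against 2.12% of all tested genes) at an unadjusted p under 0.05. The median difference was -0.71, against -0.10 for all genes. Brain 15 detected 0 of the 458 loci, where the other 15 brains detected 60 to 99, and DMSO brain 21 detected 27. Without brain 15 the median difference was 0.65, against 0.03 for all genes, with 0 loci higher and 2 lower (1.87%, against 0.633%). An identifier listed at 0 can be a failed estimate, and brain 15 missed 57.5% of the 4120 identifiers that all other 15 brains detected. It missed 63.1% of those at a mean level under 1 and 32.3% of the numbered genes at a level of 6 or more.

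With all libraries, no ribosomal or small nuclear RNA locus passed the test over all colonies or in SB1. Ribosomal RNA forms the core of the ribosome, and small nuclear RNAs are parts of the spliceosome. Of 21 ribosomal RNA loci tested, 0 were higher and 0 lower over all colonies at an unadjusted p under 0.05, and in SB1 6 were higher (28.6%, against 4.41% of all tested genes) and 2 lower (9.52%, against 0.49%). Without brain 13, and likewise without brain 16, 0 were higher. Cflo_rRNA14, Cflo_rRNA15 and Cflo_rRNA16 stood at 13.07 to 15.26 in 14 of the 16 brains and were listed at 0 in TSA brains 8 and 9, both of SB1. Cflo_rRNA3 and Cflo_rRNA5 stood at 13.68 and 14.02 in brain 15 and at 6.02 to 9.70 in the other 15 brains. These 5 loci were picked after their values were seen. Of 12 small nuclear RNA loci tested, 1 was lower (8.33%, against 2.12% of all tested genes) and 0 higher over all colonies, and the median difference was -0.71, against -0.10 for all genes. Without brain 15 it was -0.39, again with 1 lower. Without the 5 brains that stood apart 4 were lower (33.3%, against 2.33% of all tested genes) and the median was -0.90, against -0.01.

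In colony SB4, the other colony with both arms, the dose was 100 µM and there were 2 brains in each arm. Limma called 0 genes, with 30 higher (0.612%) and 143 lower (2.92%) at an unadjusted p under 0.05 and a median difference of -0.30. With the constants removed the counts were 8 and 154. Without brain 15 they were 194 and 119, without brain 14 they were 323 and 1105, and without TSA brain 5 or 6 they were 3 and 162 or 4 and 191, where the lone brain of an arm is assumed to vary like the others. The SB1 and SB4 differences share no library, and across 4899 genes they correlated at r = -0.022, with 47.2% of genes of the same sign. Without brain 15 the correlation was 0.0999 and 52.3% were of the same sign. Of the 240 genes at an unadjusted p under 0.05 by limma in SB1, 42.5% had the same sign in SB4 with all libraries. Without brain 15 this share was 68.8%. These genes include transfer RNA loci, which are not independent. The difference between the colonies was tested as an interaction, and limma called 0 genes (0.0%), with 212 larger (4.33%) and 26 smaller (0.531%) in SB1 at an unadjusted p under 0.05 and a smallest adjusted p of 0.842. Of the genes named above Cflo_11285 had an interaction of -5.04 (limma adjusted p = 0.9). The interaction held brain 15 among the 2 SB4 brains with C646 and was not fitted without it. Colony, dose and that library cannot be told apart here.

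**Figure D5:**
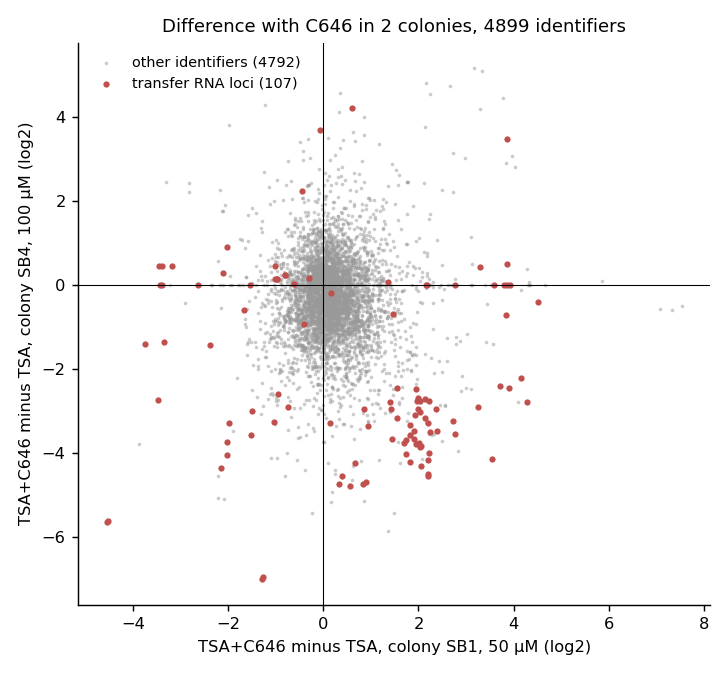
Difference between TSA+C646 and TSA on the log2 scale in colony SB1 (50 µM C646, horizontal) and colony SB4 (100 µM, vertical) for 4899 identifiers, with the 107 transfer RNA loci in red and all others in grey. Across all points r was -0.022. Most red points lie right of 0 in SB1 and below 0 in SB4, where brain 15 detected 0 of 458 transfer RNA loci.

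Chemosensory receptors detect odours and tastes at the antennae, and their transcripts were scarce in these brains. Of 501 receptor identifiers, the odorant co-receptor among them, 8 passed the filter. Over all colonies 0 were higher (0.0%, against 1.43% of all tested genes) and 0 lower (0.0%, against 2.12%) with C646 at an unadjusted p under 0.05. At such shares 8 identifiers are too few to tell receptors from other genes. In SB1 1 was higher (12.5%, against 4.41%) and 0 lower, and with the constants removed 0 were higher. Orco, the co-receptor that odorant receptors need, was present in 6 of 10 TSA and 3 of 6 TSA+C646 brains and stood at 0.94 or lower. IR25a, a broad co-receptor of ionotropic receptors, was found in 9 of 10 TSA brains, at up to 0.50. It was found in 6 of 6 TSA+C646 brains, at 0.57, 0.91, 0.51, 0.56, 2.08 and 0.10 in the order of their numbers. Brains 11 to 15 lay above all TSA brains and brain 16 did not. For brain 15 this was fixed once IR25a was detected, since undetected identifiers there carry deposited values of up to 1.30. IR25a had too low a mean for the filter, and without a filter its difference was 0.47 (SE 0.20, limma adjusted p = 1.0). IR8a, a co-receptor of acid-sensing receptors in flies, was detected in 9 of 10 and 5 of 6 brains, and IR76b, a co-receptor known from flies, in 7 of 10 and 2 of 6. Their differences without a filter were -0.02 and -0.31 (limma adjusted p = 1.0 for both).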

How the data were processed

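The authors' deposited table holds log2 values, a base inferred here, and no counts, so depth is unknown. Per the submitters' processing notes, the tools were Cufflinks 2.2.1, Bowtie2 and bcl2fastq 2.0. No build or annotation is given in the sources used here. A spike-in mix was added, per the labels' protocols, and no such identifiers were used here.

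Each deposited library was found to follow 1 shared distribution plus 1 constant, cut off at 0, with a largest deviation of 1e-10. At the bottom of each library a run of tied identifiers followed the table's own order, and those above the run are called detected. Levels of single brains have the constant removed and undetected identifiers at 0. Group means, fitted differences and tests take deposited values, and quantities with the constants removed are named so.

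Tests used limma 3.58.1 in R 4.3.3, with a variance trend and Benjamini-Hochberg adjustment at 0.05, on 4899 of 18130 identifiers with a mean of at least 1. The main comparison had a mean each for TSA, TSA+C646 and DMSO, and SB1 and SB4 had their own fits. The planned log2(value + 1) was not applied, since values were already logged. Scripts were tested on simulated data. Library totals were compared with exact permutation tests in scipy 1.17.1, with numpy 2.4.6 and pandas 2.3.3, and figures with matplotlib 3.10.9. P-values measure the spread between brains, which may share a nest box.

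Genes named are the 8 with the smallest p in each direction over all colonies, the 6 in SB1, the 4 identifiers in each direction that differ most in the share of brains detecting them, and the co-receptors. Others are said to be chosen after their values were seen. Members and lists were chosen with earlier results of these data known. Alternatives were pseudocounts, filters, quantile normalization, array weights, colony terms, single doses and left-out libraries. Leaving out the brains that stand apart, and the alternatives for SB4 and the interaction, were chosen after seeing the data.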

Additional observations from a re-analysis of the deposited data

Results flagged for a closer look

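Values that stood apart within their group by Dixon's gap test are given here without weighing. The test marks about 1 in 20 groups by chance where values are normally distributed, and 15 values were marked in 65 groups tested. That rate does not hold for gene levels, since undetected genes all carry the same level. A gene detected in only 1 brain of a group is marked by construction. The number of marks therefore cannot be compared with chance.

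Of library values, TSA+C646 brain 15 had a median deviation of 1.29 from the median profile and detected 0 transfer RNA loci, and TSA+C646 brain 16 had a constant of 0.907. Among the 4 SB1 TSA brains, brain 9 had a constant of 0.482. TSA brain 2 detected 22 ribosomal RNA loci and TSA brain 3 detected 13 small nuclear RNA loci.

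Of gene levels over all colonies, Cflo_01141 stood apart in TSA brain 6, at 1.94, Cflo_16586 in TSA brain 3, at 1.91, and Cflo_02028 in TSA brain 9, at 0.98, the last 2 being the single TSA brain that detected the gene. In TSA+C646 brain 15 Cflo_13306 stood at 7.29 and Cflo_09644 at 6.17, and in TSA+C646 brain 12 Cflo_03594 stood at 1.66. Among the SB1 TSA brains, brain 9 alone detected Cflo_11251, at 0.36, Cflo_01141, at 0.63, and Cflo_07855, at 0.79.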

How the results depend on the processing

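Over all colonies limma called 0 genes under each alternative run, and in SB1 it called 0 to 11 with a library left out and 0 otherwise. Counts at an unadjusted p under 0.05, higher then lower and beside 70 and 104, were 199 and 167 without a filter, 21 and 33 at a mean of at least 2, 129 and 145 after quantile normalization, 109 and 171 with the constants removed, 114 and 142 with array weights, 115 and 49 with colony as a fixed term, 165 and 15 at 50 µM, 103 and 760 at 100 µM, and 116 and 101 without the 5 brains that stood apart and with the constants removed. The fit with colony as a fixed term held only the SB1 and SB4 brains of both arms. Its counts therefore differ by the set of brains as well as by the colony term. The 100 µM fit held 2 TSA+C646 brains, and brain 15, which left 64.4% of the tested genes undetected, was among them. The counts at 100 µM therefore cannot separate dose from that library, and an effect of dose alone was not tested. With a library left out the counts over all colonies ran from 34 to 143 and from 31 to 326. In SB1, beside 216 and 24, they were 435 and 56 without a filter, 217 and 86 after quantile normalization, 216 and 87 with the constants removed, and 168 and 153 without the 3 brains that stood apart. With a library left out they ran from 93 to 251 and from 16 to 93. In SB4 they were 8 and 154 with the constants removed, and 3 to 323 and 119 to 1105 with a library left out. The interaction gave 230 and 66 with the constants removed.

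The mean difference in identifiers detected, -1291, was 140.8 in SB1 alone (exact permutation p = 0.971) and -2064 to -216 with a TSA+C646 library left out. That in the constant, -0.0544, was 0.161 in SB1 alone (exact permutation p = 0.743) and -0.216 to 0.0311 with a TSA+C646 library left out, the last without brain 15. The median SD per gene was 0.51 in TSA and 0.42 in TSA+C646 brains without those that stood apart. The causes were not tested. Of the 12 genes named in SB1, Cflo_07855 gained a call without brain 11. No paired analysis was possible because the TSA and TSA+C646 brains share no replicate numbers.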
